A study of Mus musculus with 24 samples.

Results

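Hippocampal RNA of mice culled 3 h after fear conditioning was compared with that of mice culled 1 h after it. Wild-type (WT) and Tob-KO mice were pooled. Per the paper's methods, conditioning paired a tone with a foot shock 3 times. The comparison used 12 of the 24 libraries of the study, 6 at 3 h and 6 at 1 h, each from 3 WT and 3 Tob-KO mice, chosen by the time point and genotype in the sample labels. All mice were male C57BL/6J of 8 to 12 weeks, and every mouse of these 4 groups had been conditioned. Tob-KO mice carry a knockout of Tob1 in the whole animal, and no cell type is singled out. The 6 naive libraries (3 per genotype) and the 6 libraries of mice culled at 15 min served as reference levels that the comparison itself did not use. The question was which transcripts raised early after conditioning had been shut off by 3 h, and which had risen late.

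Neurons that fire strongly transcribe a first wave of genes within minutes, without new protein synthesis. These immediate early genes encode transcription factors (Fos, Jun, Egr and Nr4a families) and a few synaptic proteins such as Arc. Others encode phosphatases (Dusp) and feedback inhibitors (Spry) that switch ERK signalling off again. Their transcripts decay fast, in part through AU-rich elements in the 3′ UTR, and their promoters often hold CArG boxes, bound by SRF, or cAMP response elements, bound by CREB. A second, delayed set of genes for growth factors, channels and synaptic proteins follows, and stress also releases glucocorticoids, which act on transcription through their own nuclear receptor.

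The total count was 28847989 to 39829648 per library. Levels are given as CPM, the count relative to the TMM-normalized size of the library, and fold changes as log2 of 3 h over 1 h with their standard error (SE). Markers of hippocampal excitatory neurons were present at 6238 to 7531 CPM in sum in all 12 libraries, and 0 of these 14 genes changed. The choroid plexus, a tissue beside the hippocampus that is taken along to varying degrees, contributed unevenly. Its 18 marker genes summed to 266 to 5161 CPM at 1 h (median 3542) and to 234 to 4650 CPM at 3 h (median 1803), with low levels in 1 library at 1 h and in 3 libraries at 3 h. Tob1 was counted at 36.9 to 44.4 CPM in the 6 WT libraries and at 52.8 to 67.6 CPM in the 6 libraries labelled Tob-KO. Gene counts do not show which exon the reads come from, so the Tob1 count could not check the genotype labels, and genotypes are given below as labelled.

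Of 18813 genes tested with edgeR's quasi-likelihood test and genotype as a covariate, 988 (5.25%) were called at a Benjamini-Hochberg FDR of at most 0.05. At 3 h, 532 genes (2.83%) were lower than at 1 h and 456 (2.42%) were higher. Most changes were small: the median log2 fold change was -0.23 among the fallen genes and 0.26 among the risen genes, and 24 called genes (0.128% of those tested) reached a fold change of 2, 13 down and 11 up. In 341 of all genes tested (1.81%) every 3 h library lay below every 1 h library, and in 311 (1.65%) every one lay above. In bulk tissue, fewer cells of a type and less RNA per cell cannot be told apart. Time after conditioning and time of day cannot be told apart either, because the time of culling is not given in the sources used here. With the choroid plexus score as a covariate 851 genes were called, 747 of them among the 988. Among the 8 libraries rich in choroid plexus 343 were called, 291 of them among the 988.

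The 7 lists of early genes held 84 tested genes, and 40 of them (47.6%) fell between 1 h and 3 h while 0 rose, against 2.83% falling among all genes. The median of the 84 log2 fold changes was -0.27, against 0.00 over all genes. These lists were chosen with earlier results of these libraries known. The number of early genes that fell was 39 with the choroid plexus score as a covariate, 32 in the choroid-plexus-rich libraries alone and 33 to 40 when any single library was left out.

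**Figure D1:**
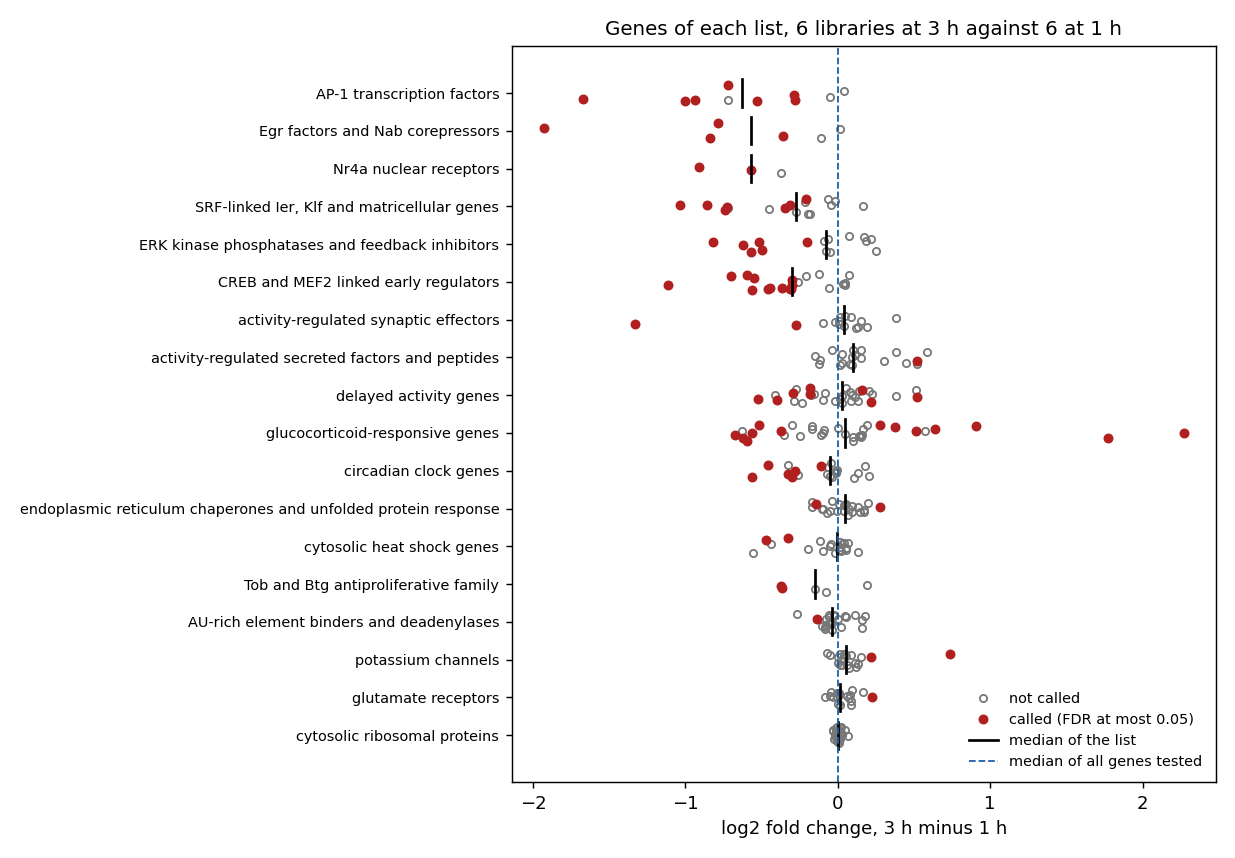
Log2 fold change from 1 h to 3 h (horizontal axis) of every tested gene in each list (rows), with called genes filled, other genes open, the list's median as a black bar and the median of all genes as a dashed line. The filled points of the 7 early lists (the top rows down to the synaptic effectors) all lie left of 0, while ribosomal protein genes cluster on the dashed line.

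AP-1 is a dimer of Fos and Jun family proteins and the best known of the activity-induced transcription factors. In this list 7 of 10 tested genes fell (70%, against 2.83% of all genes). Fos (ENSMUSG00000021250.13, chr12:85473890-85477273, forward strand) lay between 25.5 and 36.7 CPM at 1 h, with a median of 29.9. At 3 h it lay between 5.96 and 16.0 CPM, with a median of 8.72. The groups did not overlap, and the median at 3 h, though not the highest library, was within the range of the naive libraries, which spanned 4.08 to 14.8 CPM. The log2 fold change of Fos was -1.67 (SE 0.16, adjusted p = 9.74e-05 by edgeR), a 3.18-fold fall. Junb, a Jun protein that partners Fos, went from 66.3 to 93.0 CPM (median 83.4) at 1 h to 37.8 to 51.9 CPM (median 41.4) at 3 h. All 6 of its 3 h libraries lay below all 6 at 1 h, with a log2 fold change of -0.94 (SE 0.08). Fosb fell by 0.72 and Fosl2 by 0.53 on the log2 scale, without overlap of the groups. Fosb was still at 10.6 to 15.7 CPM at 3 h (median 12.5), above the naive median of 9.67. Jun, which is also expressed at rest, fell by only 0.29. Atf3, a stress-induced repressor, fell by 1.00 from a median of 1.56 CPM, and Mafk, a small Maf protein, by 0.28. The call of Atf3 was lost in 8 of the 12 fits without 1 library and that of Mafk in 11. Jund, the constitutive Jun protein, was at medians of 138 and 141 CPM and was not called.

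Egr proteins are zinc finger activators, and Nab proteins are the corepressors that bind them. Egr2 (ENSMUSG00000037868.15, chr10:67535475-67542188, forward strand) had the largest fall of all called genes with a mean of at least 1 CPM. It lay between 4.62 and 9.01 CPM at 1 h (median 5.61) and between 0.683 and 3.31 CPM at 3 h (median 1.44). The groups did not overlap, and the fall was 3.81-fold (log2 -1.93, SE 0.21, adjusted p = 0.000306 by edgeR). Egr1 went from 188 to 255 CPM (median 206) at 1 h to 89.1 to 187 CPM (median 122) at 3 h. These groups touched without overlapping, and the log2 fold change of Egr1 was -0.78 (SE 0.11). Egr4 was also separate between the groups, at 35.3 to 49.8 CPM at 1 h and 23.9 to 25.9 CPM at 3 h, with a log2 fold change of -0.84 (SE 0.06). Nab2, itself an Egr target, fell by 0.36. Egr3 was not called, with medians of 60.05 CPM at 1 h and 58.6 CPM at 3 h (log2 fold change 0.01, SE 0.08).

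The Nr4a proteins are orphan nuclear receptors induced by cAMP and calcium. Nr4a1 lay between 82.1 and 105 CPM at 1 h (median 94.8) and between 40.7 and 69.0 CPM at 3 h (median 46.8). The groups did not overlap (log2 fold change -0.91, SE 0.09, adjusted p = 0.000207 by edgeR). Nr4a3 fell by 0.57 (SE 0.07), from a median of 122 CPM to one of 83.2 CPM. Nr4a2 had a log2 fold change of -0.37 (SE 0.11) and did not pass the test (adjusted p = 0.0682 by edgeR).

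**Figure D2:**
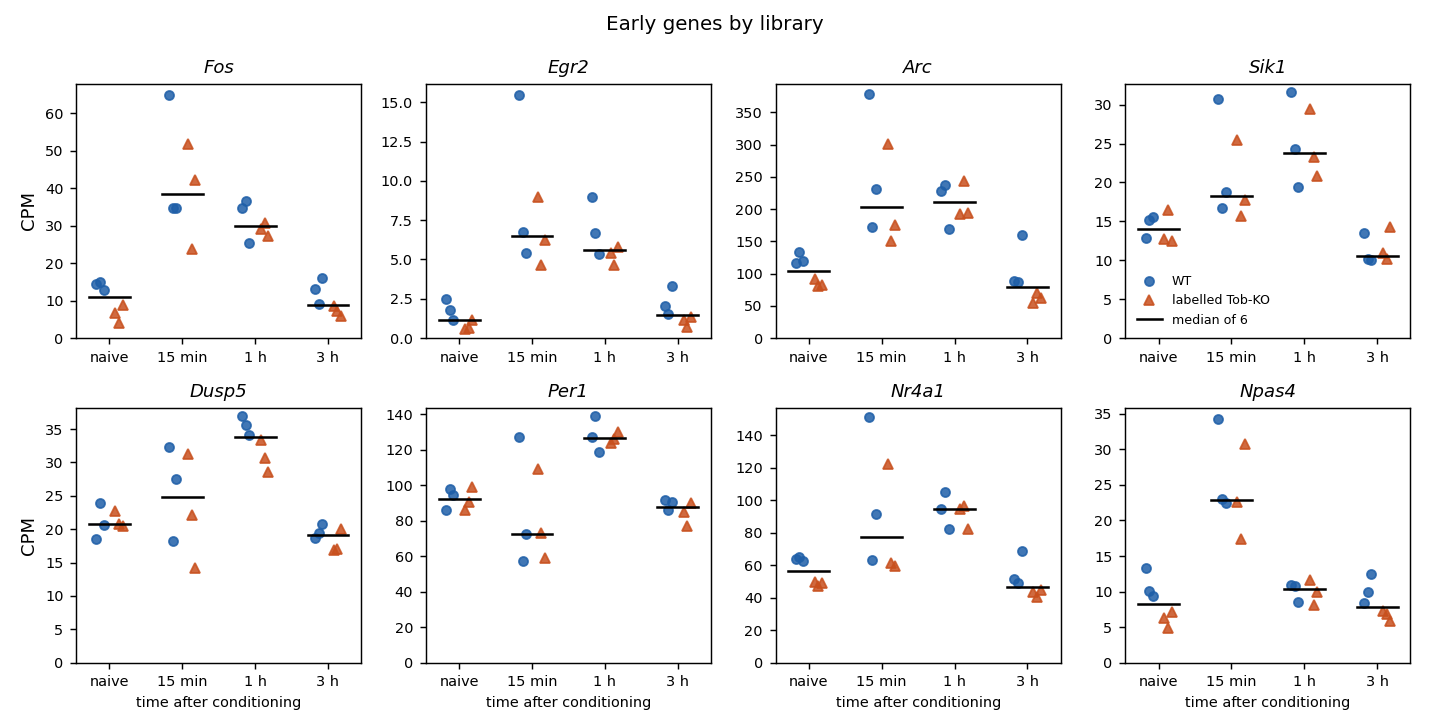
CPM of 8 early genes (vertical axes, from 0) in each library over the naive, 15 min, 1 h and 3 h groups, with WT as circles, libraries labelled Tob-KO as triangles and the median of 6 as a bar. In Fos, Egr2, Arc, Sik1, Dusp5, Per1 and Nr4a1 all 3 h points lie below all 1 h points, while Npas4 was highest at 15 min (17.3 to 34.3 CPM) and overlapped between 1 h and 3 h.

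Of the SRF-linked genes, 7 of 17 fell (41.2%, against 2.83% of all genes), and 0 rose. Srf itself, which encodes serum response factor, fell by 0.21 (SE 0.03) from 71.5 to 79.8 CPM to 62.8 to 68.8 CPM, a small change without overlap. Klf2 and Klf4, Krüppel-like factors, fell by 0.74 and 0.86. Cyr61, a matricellular protein, was at 4.91 to 9.25 CPM at 1 h and at 3.05 to 4.37 CPM at 3 h (log2 fold change -1.04, SE 0.14). Mcl1, an anti-apoptotic Bcl-2 relative, fell by 0.31 (SE 0.04) from 82.6 to 91.8 CPM to 64.4 to 76.2 CPM. Klf10 and Thbs1 also fell, with calls that were lost in 9 and 8 of the 12 fits without 1 library. Klf2, Klf4 and Cyr61 are also expressed in vessels, as are Apold1, an endothelial early gene, and Myh11, the smooth muscle myosin. Apold1 fell by 1.10 (SE 0.23) from a median of 7.28 CPM to one of 2.97 CPM with overlap of the groups. Myh11 fell by 0.86 (SE 0.23), and its call was lost in 10 of the 12 fits without 1 library. The 12 endothelial and mural markers summed to 345 to 419 CPM at 1 h and 308 to 370 CPM at 3 h. Of them 2 fell (16.7%, against 2.83% of all genes), Flt1 by 0.25 and Slco1a4 by 0.23. The 9 meningeal markers summed to 156 to 328 CPM and 131 to 291 CPM, with 1 lower (11.1%, against 2.83% of all genes), Col3a1, by 0.64. The calls of Slco1a4 and Col3a1 were lost in 9 and 7 of those fits. The part of vascular and meningeal RNA in these falls was not tested.

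Of the phosphatases and feedback inhibitors of ERK signalling, 6 of 15 fell (40%, against 2.83% of all genes) and 0 rose. Dusp5, a nuclear ERK phosphatase, had the smallest p of all genes. It lay between 28.6 and 37.0 CPM at 1 h (median 33.8) and between 16.9 and 20.8 CPM at 3 h (median 19.1), with naive libraries at 18.6 to 23.9 CPM. The log2 fold change was -0.82 (SE 0.05, adjusted p = 7.95e-06 by edgeR), and the groups were far apart. Dusp6, the cytoplasmic ERK phosphatase, fell by 0.57 and Spry4, which blocks ERK activation upstream, by 0.50. Errfi1, an inhibitor of EGF receptors, fell by 0.52 from 59.4 to 64.9 CPM to 37.3 to 50.7 CPM. Dusp1, which acts mainly on p38 and JNK, had peaked before 1 h. It was at 22.4 to 61.6 CPM at 15 min, 20.3 to 28.5 CPM at 1 h and 13.6 to 21.5 CPM at 3 h, and its last groups overlapped. Dusp4 also fell, with a call that was lost in 9 of the 12 fits without 1 library. Dusp8, Spred1 and Spred2, at medians of 116 to 206 CPM, were not called.

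Of the CREB and MEF2 linked regulators 12 of 20 fell (60%, against 2.83% of all genes) and 0 rose. Sik1, a kinase that holds back CREB coactivators, fell from 19.4 to 31.6 CPM (median 23.8) to 10.01 to 14.3 CPM (median 10.5). Its log2 fold change was -1.11 (SE 0.13), and at 3 h its median was below the naive median of 14.05 CPM. Per1, a clock gene that CREB and glucocorticoids both induce, had a different course from Fos. It was at 57.1 to 127 CPM at 15 min, with a median (72.7) below the naive one (92.5). It then reached 119 to 139 CPM at 1 h and was at 76.9 to 91.6 CPM at 3 h. The 1 h and 3 h groups did not overlap (log2 fold change -0.56, SE 0.04, adjusted p = 1.94e-05 by edgeR). Tiparp, Gadd45b, Nfil3, Coq10b and Arl4d fell by 0.60, 0.55, 0.46, 0.44 and 0.70. The call of Arl4d was lost in 3 of the 12 fits without 1 library. Btg2, an antiproliferative relative of Tob1, was at 26.3 to 44.0 CPM at 15 min, had already come down to 17.1 to 21.3 CPM at 1 h and was at 13.2 to 17.4 CPM at 3 h.

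Npas4, a neuronal factor that depends on calcium entry, had its peak before the interval compared. Its median was 22.9 CPM at 15 min, 10.4 CPM at 1 h and 7.88 CPM at 3 h. The difference between 1 h and 3 h did not pass the test (log2 fold change -0.26, SE 0.14, adjusted p = 0.338 by edgeR). Ier2 had the same shape, with medians of 11.7, 7.02 and 4.93 CPM and an adjusted p of 0.111 by edgeR from 1 h to 3 h.

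Of the activity-regulated synaptic effectors 2 of 15 fell (13.3%, against 2.83% of all genes) and 0 rose. The median log2 fold change of these 15 genes was 0.04. Arc (ENSMUSG00000022602.14, chr15:74669083-74672570, reverse strand), which drives the removal of AMPA receptors from synapses, lay between 169 and 243 CPM at 1 h (median 211). At 3 h it lay between 54.5 and 160 CPM, with a median of 78.6 below the naive median of 104. The highest 3 h library just missed the lowest 1 h library, and the fall was 2.51-fold (log2 -1.33, SE 0.18, adjusted p = 0.00133 by edgeR). Frmd6 fell by 0.27. Homer1, a synaptic scaffold, had medians of 202 and 176 CPM and a log2 fold change of -0.09 (SE 0.08). Nptx2, a secreted pentraxin that gathers AMPA receptors, had medians of 28.8 CPM at 1 h and 37.3 CPM at 3 h and did not pass the test (log2 fold change 0.38, SE 0.11, adjusted p = 0.054 by edgeR).

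Late-rising genes were sought first among those known to depend on activity. Of the secreted factors and peptides, 1 of 20 rose and 0 fell, and of the delayed activity genes 3 of 31 rose and 5 fell. The lists share members, and of their 47 genes together 3 (6.38%) rose, against 2.42% of all genes, and 5 (10.6%) fell, against 2.83%. With the choroid plexus score as a covariate 3 of the delayed genes rose and 5 fell. In the choroid-plexus-rich libraries alone 0 of the delayed genes rose and 3 fell. Inhba, the activin A subunit, rose from 3.92 to 5.23 CPM (median 4.07) at 1 h to 4.85 to 7.42 CPM (median 5.95) at 3 h. Its groups overlapped in 1 library at 1 h, which lay far above the others, and its log2 fold change was 0.52 (SE 0.10, adjusted p = 0.0114 by edgeR). Naive libraries had 4.49 to 5.88 CPM of Inhba. Gpr22 and the potassium channel Kcna4 rose by 0.16 and 0.22. The call of Kcna4 was lost in 3 of the 12 fits without 1 library. The delayed genes that fell were Gpr3 (-0.53), Kdm6b (-0.40), Stk40 (-0.29), Etv3 (-0.18) and Mfap3l (-0.18), the last with a call lost in 7 of the 12 fits without 1 library. Bdnf, the neurotrophin, had medians of 51.2 CPM at 1 h and 55.9 CPM at 3 h and was not called (log2 fold change 0.03, SE 0.06). Penk and Crh, neuropeptides, had log2 fold changes of 0.45 (SE 0.13) and 0.58 (SE 0.19) and did not pass the test. Of 20 potassium channels 2 rose (10%, against 2.42% of all genes), and Kcnj2, the inward rectifier Kir2.1, moved most. It lay between 8.18 and 12.9 CPM at 1 h (median 9.94) and between 13.1 and 24.3 CPM at 3 h (median 17.2), against a naive median of 12.6. The groups were separate (log2 fold change 0.74, SE 0.13, adjusted p = 0.00503 by edgeR). Of 18 glutamate receptor genes 1 rose (5.56%, against 2.42% of all genes), Grin2c, by 0.22, and its call was lost in 8 of the 12 fits without 1 library.

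Most of the risen genes were already below their naive level at 15 min. The naive and 15 min libraries were not used to choose these genes, whereas the 1 h and 3 h values were, so that the distances of the called genes from naive at 1 h and 3 h are partly fixed by that choice and are given as a description. At 15 min 418 of the 456 risen genes (91.7%) were below their naive mean, against 48.4% of all tested genes, with a median log2 difference of -0.19. At 1 h the median difference from naive was -0.28, and at 3 h it was 0.00. The fallen genes had the opposite course. At 15 min 398 of 532 (74.8%) were above their naive mean, against 51.6% of all tested genes, with a median of 0.07. At 1 h they stood at 0.17 and at 3 h at -0.06. Averaged over the risen genes, every 15 min library was below every naive library, the 15 min libraries spanning -0.42 to -0.17 and the naive ones -0.05 to 0.05 on the log2 scale. Averaged over the fallen genes, the 15 min libraries spanned 0.04 to 0.21 and the naive ones -0.04 to 0.04.

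**Figure D3:**
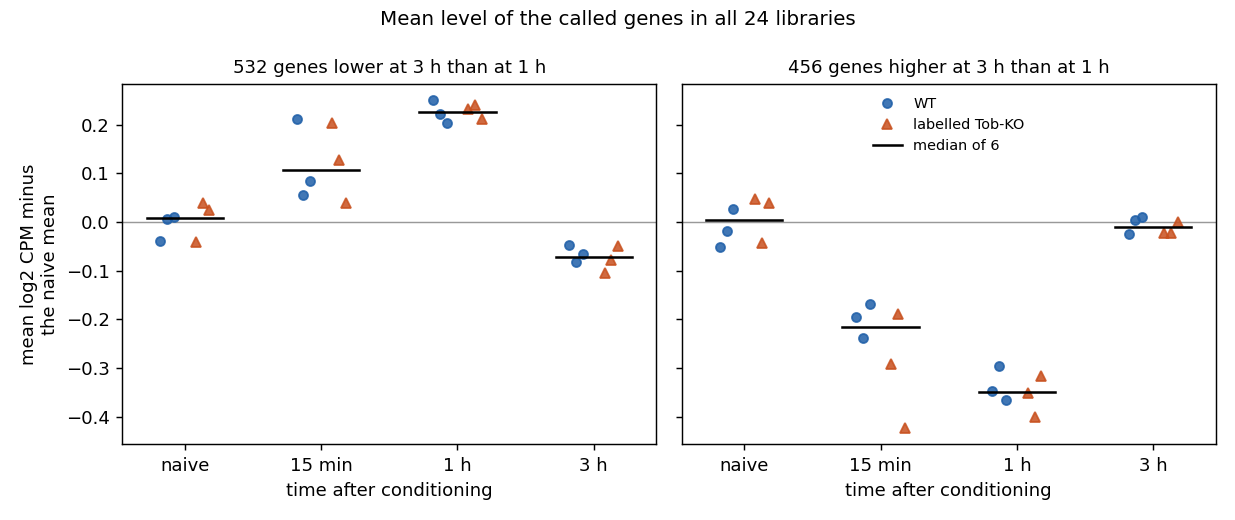
Mean log2 CPM minus the naive mean (vertical axis) over the 532 fallen (left) and 456 risen genes (right) in each of the 24 libraries by time point. The separation of 1 h from 3 h follows from how the genes were chosen; the 15 min libraries, which were not used, lie at 0.04 to 0.21 on the left and at -0.42 to -0.17 on the right.

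A direct test of 3 h against naive libraries called 0 of 18935 genes (0%) by edgeR's quasi-likelihood test, with 1750 at an unadjusted p under 0.05. DESeq2 called 28, 10 higher and 18 lower, and edgeR's exact test called 4, all lower. Among all tested genes, 51 (0.271%) lay above all naive libraries in all 3 h libraries and 73 (0.388%) below. Of the 456 risen genes 2 (0.439%) lay above, a share close to that background: Ccsap, a centriole and spindle protein, at 61.8 to 66.1 CPM against 54.5 to 60.6 CPM, and the zinc finger gene Zfp775, at 7.03 to 7.75 against 6.46 to 6.88 CPM. The call of Zfp775 as risen since 1 h was lost in 10 of the 12 fits without 1 library. Another 4 (0.877%), Rmdn1, Smpd4, Pnpla3 and Gm16586, had risen since 1 h but were still below all naive libraries, and the call of Pnpla3 was lost in 7 of those fits. These genes were named after their values were seen. Of the 532 fallen genes, 0 stayed above all naive libraries and 14 (2.63%) were below them, but low values at 3 h are also what chose these genes.

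Plin4, which coats lipid droplets, had the largest rise of all called genes with a mean of at least 1 CPM. It lay between 3.14 and 15.0 CPM at 1 h (median 6.17) and between 13.99 and 30.4 CPM at 3 h (median 28.3). The highest 1 h library passed the lowest 3 h library, and the rise was 3.41-fold (log2 1.77, SE 0.36, adjusted p = 0.0114 by edgeR). At 15 min Plin4 had been at 1.89 to 5.17 CPM, against 6.90 to 34.3 CPM in naive mice, whose spread was wide. Hif3a, an inhibitory hypoxia-inducible factor, showed the same order, with medians of 14.4 CPM in naive mice, 5.18 at 15 min, 7.81 at 1 h and 16.2 at 3 h (log2 fold change 0.90, SE 0.20).

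Both belong to the glucocorticoid-responsive list, of which 7 of 33 rose (21.2%, against 2.42% of all genes) and 6 fell (18.2%, against 2.83%). The list thus moved in both directions, with a median of 0.05. With the choroid plexus score as a covariate 9 rose and 8 fell, and in the choroid-plexus-rich libraries alone 5 rose and 10 fell. Fkbp5, the cochaperone that dampens the glucocorticoid receptor, was at 57.1 to 67.3 CPM at 15 min, 65.7 to 80.1 CPM at 1 h and 76.9 to 92.9 CPM at 3 h. Its log2 fold change from 1 h to 3 h was 0.28 (SE 0.06), and naive libraries spanned 68.4 to 92.2 CPM. Mertk, a receptor by which astrocytes and microglia engulf debris, went from 36.1 to 49.6 CPM at 1 h to 59.8 to 69.4 CPM at 3 h without overlap (log2 fold change 0.51, SE 0.06). Sult1a1 and the lipid transporter Mfsd2a rose by 0.64 and 0.37. The members that fell were Per1, Errfi1, Dusp1 and Tob2, together with Pdk4, which restrains pyruvate oxidation (-0.68), and Ddit4, an mTOR inhibitor (-0.59). Sgk1, a kinase gene that glucocorticoids induce, had medians of 107 CPM in naive mice, 63.0 at 15 min, 152 at 1 h and 89.2 at 3 h, and its fall did not pass the test (log2 fold change -0.63, SE 0.18). Lcn2, lipocalin-2, was called as higher (log2 fold change 2.27, SE 0.44), but on 1 to 5 counts per library at 1 h and 5 to 26 at 3 h, where the size of the change depends on few reads.

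**Figure D4:**
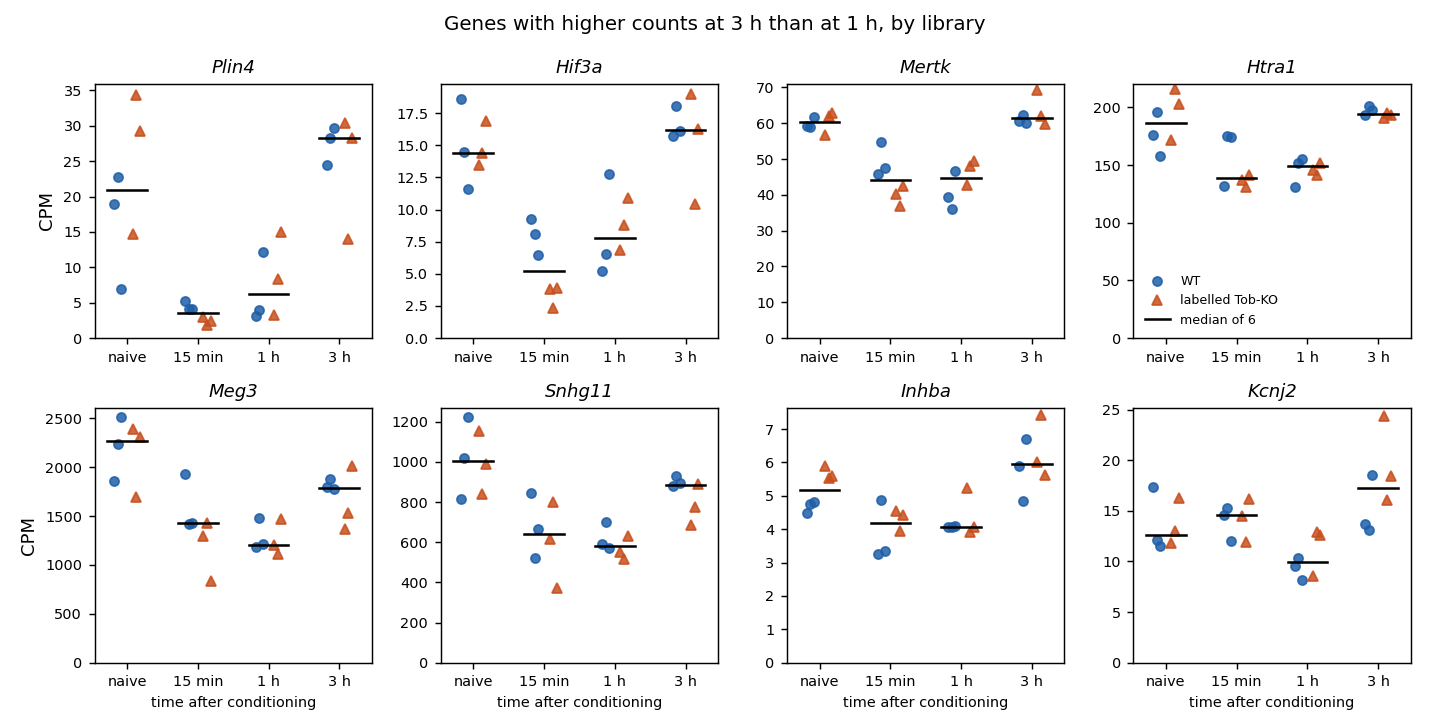
CPM of 8 genes called as higher at 3 h than at 1 h (vertical axes, from 0) in each library over the 4 time points, with WT as circles, libraries labelled Tob-KO as triangles and the median of 6 as a bar. Plin4, Hif3a, Mertk, Htra1, Meg3 and Snhg11 were lower at 15 min and 1 h than in naive mice by their medians, whereas Kcnj2 had a 15 min median of 14.5 CPM, above the naive 12.6.

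Htra1, a secreted protease of astrocytes, had the smallest p among the risen genes. It lay between 131 and 155 CPM at 1 h and between 191 and 201 CPM at 3 h, so that the 3 h libraries were close to each other and clear of the 1 h group (log2 fold change 0.42, SE 0.04, adjusted p = 8.25e-05 by edgeR). Of 8 astrocyte markers 1 rose (12.5%, against 2.42% of all genes), Fgfr3, by 0.24. The sum of these markers was 4099 to 4923 CPM at 1 h and 4525 to 4773 CPM at 3 h.

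Long non-coding RNAs of neurons and nuclear bodies formed a list chosen after the data had been seen. Of this list 7 of 20 rose (35%, against 2.42% of all genes) and 0 fell. With the choroid plexus score as a covariate 6 rose. With all 24 libraries in the fit 2 rose, and in the choroid-plexus-rich libraries alone 4. Meg3 lay between 1112 and 1481 CPM at 1 h (median 1205) and between 1367 and 2009 CPM at 3 h (median 1789), against a naive median of 2272. Snhg11 rose by 0.50 (SE 0.07) from a median of 581 CPM to one of 886 CPM, with a naive median of 1005. Both were still short of the naive median at 3 h, and in both the groups overlapped. Miat, Rian and the host genes of miR-124 (Mir124-2hg, Mir124a-1hg) rose by 0.36, 0.20, 0.53 and 0.29, and the call of Mir124a-1hg was lost in 10 of the 12 fits without 1 library. Of splicing regulators, a list also chosen afterwards, 7 of 27 rose (25.9%, against 2.42% of all genes) and 1 fell (3.70%, against 2.83%). With the choroid plexus score as a covariate 6 of them rose and 1 fell. In the choroid-plexus-rich libraries alone 3 of them rose and 0 fell. Srsf5 rose from 143 to 175 CPM to 183 to 225 CPM (log2 fold change 0.36, SE 0.06) and Zranb2 and Pnisr by 0.33 and 0.37. Clk3 and Luc7l3 also rose, with calls that were lost in 7 and 3 of the 12 fits without 1 library. Tra2b, a splicing activator, fell by 0.15.

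Among the 12 called genes with the largest rise and a mean of at least 1 CPM, Plin4, Hpse, Hif3a, Pla2g3, BC030499, Gm9925 and Xkrx are annotated as protein coding, and RP24-128P19.3 matched no annotated gene. The calls of Hpse, BC030499 and Xkrx were lost in 9 to 11 of the 12 fits without 1 library. Gm15535, A930036I15Rik, Gm37069 and G630022F23Rik are annotated in other classes. Of the 11 annotated genes, Hpse overlaps no other gene. Gm15535, A930036I15Rik and Xkrx overlap one on the same strand, and the others one on the opposite strand. Of all tested genes 24.7% overlap one on the same strand and 44.2% one on the opposite strand. Among the 4 of other classes, A930036I15Rik lies on the strand of Ank2, Gm37069 opposite Capn2 and G630022F23Rik opposite Fgfr3, which itself rose. The strand setting of the counting is not given in the sources used here, so reads of such pairs cannot be assigned with certainty. Their levels were low, for example 0.661 to 0.833 CPM at 1 h and 1.18 to 2.04 CPM at 3 h for Gm15535.

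Of the clock genes 6 of 21 fell (28.6%, against 2.83% of all genes) and 0 rose: Per1, Per2, Cry1, Cry2, Nfil3 and Bhlhe40. The number was 6 with the choroid plexus score as a covariate and 4 with all 24 libraries in the fit. It was 3 in the choroid-plexus-rich libraries alone and 3 to 6 without any single library. Per1, Nfil3 and Bhlhe40 were already counted among the CREB and MEF2 linked regulators that fell. Per2 and Cry1 fell by 0.28 and 0.33, and Cry2 by 0.11. The calls of Per2, Cry1 and Cry2 were lost in 6 to 8 of the 12 fits without 1 library. The activators Arntl and Clock and the output gene Dbp were not called, with log2 fold changes of 0.11 (SE 0.07), -0.01 (SE 0.03) and -0.04 (SE 0.07). Nor were Per3, Nr1d1, Nr1d2, Bhlhe41 and Ciart, which like Per1, Cry1 and Bhlhe40 are repressors of the clock, with log2 fold changes of 0.18, -0.01, -0.04, -0.07 and -0.05.

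Genes of cholesterol synthesis were a list chosen after the data had been seen. Of 22 members 10 fell (45.5%, against 2.83% of all genes), by 0.15 to 0.39 on the log2 scale, and 0 rose. Cyp51, lanosterol demethylase, went from 70.5 to 81.6 CPM at 1 h to 59.1 to 63.2 CPM at 3 h, with naive libraries at 54.9 to 62.6 CPM. Hmgcs1, an early enzyme of the pathway, fell by 0.17 on the log2 scale. Mvd had the largest of these falls, and its call was lost in 6 of the 12 fits without 1 library. With the choroid plexus score as a covariate 10 of these genes were called, and without any single library 9 to 10. With all 24 libraries in the fit 6 were called, and in the choroid-plexus-rich libraries alone, where fewer libraries enter, 1. Of the heat shock genes 2 of 20 fell (10%, against 2.83% of all genes), Dnajb1 by 0.47 and Bag3 by 0.33. The call of Bag3 was lost in 4 of the 12 fits without 1 library. Of 24 unfolded protein response genes 1 fell (Atf4) and 1 rose (Chac1). Each is 4.17%, against 2.83% of all genes falling and 2.42% rising. The calls of Atf4 and Chac1 were lost in 8 and 10 of the 12 fits. Among 30 cytosolic ribosomal protein genes 0 were called, with log2 fold changes from -0.03 to 0.07.

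The 12 largest falls among called genes at a mean of at least 1 CPM also held Tmem252 and Gem. Tmem252, a membrane protein of little known function, went from 1.16 to 2.05 CPM at 1 h to 0.293 to 0.835 CPM at 3 h (log2 fold change -1.42, SE 0.22). Gem, a small GTPase that holds back calcium channels, went from 2.63 to 4.51 CPM to 1.07 to 2.08 CPM (log2 fold change -0.91, SE 0.16). Both were separate between the groups at low levels.

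Markers of other cell types were examined beside these genes. The choroid plexus markers had a median log2 fold change of -0.60 with 0 of 18 called, and the ependymal ones -0.32 with 0 of 9 called. Of the interneuron, microglial, oligodendrocyte and striatal or septal markers 0 of 10, 9, 9 and 12 were called. Their median log2 fold changes were 0.08, -0.002, -0.06 and 0.15, and the highest striatal or septal one was 1.89. The medians of the endothelial and mural, the meningeal and the red cell and neutrophil markers were -0.20, -0.36 and -0.40. Those of the astrocyte and the thalamic and cortical markers were 0.01 and -0.04. Of the thalamic and cortical markers 1 of 11 fell (9.09%, against 2.83% of all genes), Lef1, by 0.54. Of the red cell and neutrophil markers 1 of 6 fell (16.7%, against 2.83%), Hba-a1, by 0.40. The call of Hba-a1 was lost in 10 of the 12 fits without 1 library.

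In the Tob and Btg family 2 of 5 fell (40%, against 2.83% of all genes), Tob2 by 0.37 (SE 0.07) and Btg2. Tob proteins recruit the CCR4-NOT deadenylase to messenger RNAs. Of 23 AU-rich element binders and deadenylases 1 fell (4.35%, against 2.83% of all genes), the deadenylase Cnot6, by 0.14. The call of Cnot6 was lost in 4 of the 12 fits without 1 library. Tob1 was not called (log2 fold change -0.15, SE 0.05, adjusted p = 0.135 by edgeR).

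The change from 1 h to 3 h did not differ detectably between genotypes. The interaction of genotype and time was called in 0 of 18813 genes (0%) by edgeR's quasi-likelihood test and in 0 by DESeq2, with 1079 and 805 at an unadjusted p under 0.05. Fos fell by 1.34 (SE 0.20) in WT and by 2.02 (SE 0.12) in the libraries labelled Tob-KO, and Arc by 0.92 (SE 0.23) and 1.75 (SE 0.11). For both the adjusted p of the interaction was 0.83 by edgeR. With 6 libraries each, 102 genes were called within WT (44 up, 58 down) and 42 within the libraries labelled Tob-KO (10 up, 32 down).

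Sequence features that the test did not use were then described for the called genes. Of the fallen genes 98.8% were protein coding, of the risen genes 83.0%, and of all tested genes 83.0%. At a mean of at least 5 CPM the shares were 99.6%, 92.4% and 98.0%. There the fallen genes were close to all genes, and the risen genes lay below both. The median 3′ UTR was 1797 bp long among fallen genes, 840 bp among risen genes and 964 bp among all tested genes with a 3′ UTR. The AU-rich pentamer ATTTA occurred at a median of 1.60 per kb in 3′ UTRs of fallen genes, 0.831 in those of risen genes and 1.19 in all. It was present 3 times or more in 54.6%, 25.8% and 34.1% of them. The nonamer TTATTTATT, which contains the pentamer and was searched on the transcript strand only, was in 12.5%, 6.37% and 7.41%. Among genes with a mean of at least 5 CPM the shares with the nonamer were 12.5% of fallen, 6.48% of risen and 7.83% of all genes, and the median 3′ UTRs were 1845, 847 and 1133 bp, so the order of these 2 features held at higher expression. The 2 features are not separate, since a longer 3′ UTR has more room for a motif. The nonamer share and the share with 3 or more pentamers were not adjusted for 3′ UTR length. These are descriptions of annotated sequence, and a match is not a measured site of decay.

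**Figure D5:**
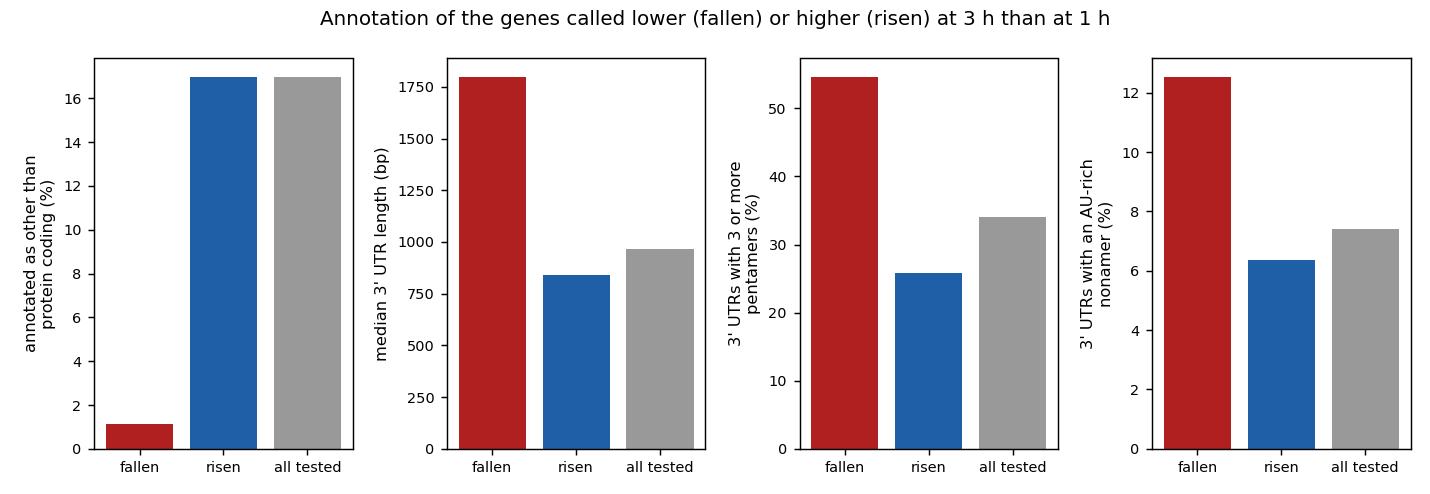
Share of genes not annotated as protein coding, median annotated 3′ UTR length, share of 3′ UTRs with 3 or more ATTTA pentamers and share with the AU-rich nonamer (bars from 0) for fallen, risen and all tested genes. The fallen genes have the lowest bar in the first panel (1.15%) and the highest in the other 3 (1797 bp, 54.6% and 12.5%).

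A nonamer site of each of 3 early genes that fell (the only one of Fos and of Per1, 1 of the 2 of Dusp1) and 1 of the 3 sites of Inhba, which rose, are shown with the nonamer in capitals, to let the contexts be compared. Sequences are RNA-sense, written as DNA, from GENCODE transcripts on GRCm38.
Fos (chr12:85477103-85477131, forward): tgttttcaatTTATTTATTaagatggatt
Dusp1 (chr17:26506159-26506187, reverse): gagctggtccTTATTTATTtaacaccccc
Per1 (chr11:69109686-69109714, forward): ggggctgcacTTATTTATTtgggagagac
Inhba (chr13:16029046-16029074, forward): cttatatttaTTATTTATTggaatcaatc
Fos carries 4 pentamers in a 3′ UTR of 815 bp and Dusp1 4 in 690 bp. Arc, which fell 2.51-fold, carries 0 in 1668 bp, and Inhba carries 21 in 4492 bp, so the motif is neither general to the fallen genes nor limited to them.

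RefSeq promoter windows of 300 bases around annotated start sites on GRCm38.p6 were available for 412 of the 532 fallen and 330 of the 456 risen genes, with 545 and 442 windows. The full cAMP response element TGACGTCA, the same on both strands, was in 4.40% of windows of fallen genes, 3.62% of risen genes and 2.78% of all tested genes. The CArG box was in 3.12%, 1.58% and 1.43%, but among genes with a mean of at least 5 CPM in 1.96%, 1.56% and 1.22%, where fallen and risen genes were close. At all levels the E-box CACGTG, which circadian factors among others bind, was in 11.01%, 11.99% and 9.28%. Shares over all 32851 promoter windows of the table were 1.79% for the cAMP response element, 1.63% for the CArG box and 7.15% for the E-box. CArG boxes stand in capitals in stretches from the windows of 3 fallen genes, with the position of the first box counted from the start site of its window. Each of these genes has 2 distinct boxes in its windows. Both are in the stretch of Dusp5, where they adjoin, and 1 is shown for Egr2, whose 5 windows belong to different start sites, and for Srf.
Egr2 (chr10:67537787-67537816, forward, box at -72): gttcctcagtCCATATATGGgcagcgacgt
Dusp5 (chr19:53529053-53529082, forward, first box at -82): ggggaaatacCCATATTTGGCCTTATATGG
Srf (chr17:46556225-46556254, reverse, box at -82): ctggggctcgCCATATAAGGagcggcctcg
The cAMP response elements of 3 fallen genes, again in capitals, lay at different distances from the start site.
Dusp1 (chr17:26508597-26508626, reverse, element at -143): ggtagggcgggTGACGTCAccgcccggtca
Btg2 (chr1:134079303-134079332, reverse, element at -166): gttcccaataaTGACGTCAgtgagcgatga
Arl4d (chr11:101665504-101665533, forward, element at -26): gccgcgtcgtgTGACGTCAcgagagggttt
By their medians, Egr2, Dusp1 and Btg2 were highest at 15 min, and Dusp5, Srf and Arl4d at 1 h.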

How the data were processed

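Hippocampal poly(A) RNA of 24 mice was sequenced, and the 12 libraries at 1 h and 3 h entered the main comparison. The authors deposited raw counts, whole numbers of read pairs or reads per gene without normalization, for 47593 gene symbols. Per the paper's methods and the submitters' processing notes, reads were aligned to GRCm38 with STAR 2.6.1d and counted with HTSeq 0.9.0. The annotation release, the strand setting and the handling of duplicates are not given in the sources used here. PCR duplicates carry no molecular identifiers, so counting errors are minimal estimates. Of the names 27 were dates written by a spreadsheet and stayed unnamed in the tests, and 45126 (94.8%) matched 1 gene of GENCODE's GRCm38 annotation.

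Genes with at least 0.2 CPM in 2 of the 12 libraries were tested with edgeR 4.0.16 in R 4.3.3 (TMM, quasi-likelihood F test, genotype and time as terms, Benjamini-Hochberg FDR of at most 0.05). The filter and scaling follow the study; its exact test, which has no covariate, was an alternative. The interaction and 3 h against naive were fitted likewise. Alternatives were other scalings, filters and tools (DESeq2 1.42.0), all libraries, a replicate block, the choroid plexus score as a covariate and leaving out each library. The scripts were tested on simulated counts. CPM differences from naive are means of log2 CPM with a prior count of 2. Replicates are separate mice. No pair within a group agreed within sampling noise (chi-square per degree of freedom 3.68 to 17.2).

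The comparison, gene lists and tests were chosen with earlier results of these data known. Genes named are the 12 called with the largest change in each direction at a mean of at least 1 CPM, called members of the lists and 10 fixed genes. Htra1, Ccsap, Zfp775, Rmdn1, Smpd4, Pnpla3 and Gm16586, the list members given as not called, and 3 lists (cholesterol, splicing, long non-coding RNAs) were added after values were seen.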

Additional observations from a re-analysis of the deposited data

Results flagged for a closer look

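In a group of 6 libraries, a highest or lowest value counted as standing apart when its gap to the next, as a share of the group's range, exceeded Dixon's 95% critical value, which chance alone gives in about 1 of 20 groups. Over the named genes, 18 such values occurred in 246 groups. At 1 h, single high libraries were seen for Gem (4.51 CPM, WT replicate 2), Egr1 (255 CPM, WT replicate 2), Klf2 (14.8 CPM, WT replicate 1), Inhba (5.23 CPM, Tob-KO replicate 1), Etv3 (44.2 CPM), Atf4 (115 CPM) and Dnajb1 (86.0 CPM), the last 3 all in Tob-KO replicate 2, and a single low one for Gpr3 (5.46 CPM). At 3 h, single high libraries were seen for Arc (160 CPM) and Btg2 (17.4 CPM), both in WT replicate 3, for Apold1 (4.78 CPM), Ddit4 (71.9 CPM) and Rian (556 CPM) in Tob-KO replicate 3, and for Hpse (2.31 CPM) and Mertk (69.4 CPM) in Tob-KO replicate 1. Single low libraries at 3 h were seen for Plin4 (13.99 CPM, Tob-KO replicate 2) and for Pnisr (147 CPM) and Miat (234 CPM) in Tob-KO replicate 1. No gene was called in the interaction of genotype and time by edgeR's quasi-likelihood test (0 genes, 1079 at an unadjusted p under 0.05) or by DESeq2 (0 genes, 805).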

How the results depend on the processing

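The comparison of 3 h with 1 h called 988 genes. Under other scalings, filters, the robust fit, the exact test and DESeq2 the number called was 965 to 1430, of which 838 to 974 were among the 988. With the choroid plexus score as a covariate it was 851, of which 747 were among the 988. It was 645 with all 24 libraries in the fit, 591 of them among the 988, and 24 with a fold change of at least 2. Within WT it was 102 and within the libraries labelled Tob-KO 42, where fewer libraries enter. In the choroid-plexus-rich libraries alone, an alternative chosen after seeing the data, it was 343, of which 291 were among the 988. Without any single library it was 570 to 849, lowest without Tob-KO replicate 2 at 1 h (570) and next without WT replicate 2 at 3 h (637); the cause was not tested. The count with the replicate number as a block was 468, of which 458 were among the 988. Libraries of a genotype with the same number did not deviate together (correlations of -0.31 to 0.16). The labels do not say whether the numbers mark mice handled together, and correlations over 3 libraries per group cannot decide it. The interaction stayed at 0 in all alternatives run, and 3 h against naive at 0 except for 28 with DESeq2 and 4 with the exact test; the cause was not tested. None of the 123 named genes reversed, and 35 of the 120 called lost the call in at least 1 of the 12 fits without 1 library. Genes near 0.2 CPM have few counts, which limits their fold changes, and 6 libraries per time point limit small ones.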
